A study of Homo sapiens with 9 samples.

Results

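The nuclear-encoded genes of the mitochondrial respiratory chain were followed in THP-1 cells (a monocytic line from a human leukaemia) with and without ectosomes of Huh7 hepatoma cells. Members were taken by name from the deposited table of gene counts: symbols that begin with NDUFA, NDUFB, NDUFC, NDUFS, NDUFV, UQCR, COX4 to COX8 or ATP5, without names that end like a pseudogene or an antisense RNA. This gave 92 of the 30000 rows of the table, 44 further names being left out by their ending. By known role, 7 were core subunits of complex I, 30 its accessory subunits and 8 its assembly factors of the NDUFAF series. A further 8 belonged to complex III, 16 to complex IV, 19 to the ATP synthase, and 4 were readthrough, divergent or pseudogene transcripts. COX4I2, COX6A2 and COX7B2 were not analysed here.

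Ectosomes are vesicles shed from the plasma membrane. The 9 libraries fell into 3 groups of 3: cells with no agent named (control, shRNA label Ctrl), cells with ectosomes and the shRNA label Scramble, and cells with ectosomes and the shRNA label PKM2_KD, which stands in the sample titles as a property of the ectosomes. PKM2 is an isoform of pyruvate kinase. All groups were the same cell line, and the sources used here give neither the dose of ectosomes nor the length of exposure. As nothing says that replicates were separate cultures, p-values speak only for the spread among these libraries, and that spread may be technical.

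The respiratory chain passes electrons from NADH at complex I, and from succinate at complex II, through coenzyme Q to complex III, then by cytochrome c to complex IV, where oxygen is reduced. Complexes I, III and IV pump protons across the inner mitochondrial membrane, and the ATP synthase uses the return of these protons to make ATP. A few subunits are encoded by mitochondrial DNA and all others by nuclear genes, whose products must be made in matched amounts, imported and put together with the help of assembly factors.

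Libraries held 17744587 to 23864381 counts. All 14 monocytic markers were detected over the libraries, with CD68 below 1 CPM (TMM-scaled counts relative to library size) in each, and their summed level was 1610 to 2490 CPM in control, 2400 to 2580 CPM with scramble and 4260 to 4640 CPM with PKM2-knockdown ectosomes. Against control the list did not move one way: 4 rose and 6 fell with scramble ectosomes, and 7 rose and 4 fell with PKM2-knockdown ectosomes (edgeR). CSF1R rose 2.39-fold with scramble and 9.89-fold with PKM2-knockdown ectosomes, while LYZ fell 11.5-fold and 5.08-fold and CEBPA 3.83-fold and 2.39-fold. Between the 2 kinds of ectosomes the calls did go one way: 9 of the 14 were higher and none lower with PKM2-knockdown. Over all rows 31.4% were higher and 30.3% lower in that comparison. Hepatocyte markers (10 of 18 in the table) summed to 3.48 to 8.22, 7.52 to 7.95 and 41.4 to 48.1 CPM in the same order, SERPINA1 making up 37.4 CPM of the last, while ALB stayed at or below 0.524 CPM. The T and B cell markers, 3 of 6 in the table, summed to 7.4 to 13.6 CPM. The part of the monocytic and hepatocyte markers in the results that follow was not tested. No library of the Huh7 cells was analysed here, so the knockdown itself was not checked. In the recipient cells PKM stood at 789, 734 and 428 CPM in control, 3376, 3573 and 3552 CPM with scramble and 2181, 2304 and 2454 CPM with PKM2-knockdown ectosomes. Control replicate 3 stood apart: its counts differed from those of the other control libraries by a chi-square of 43.6 and 40.1 per degree of freedom, against 4.69 between these and 2.44 to 6.5 within the other groups.

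The members together took up 0.887%, 0.86% and 0.974% of all counts in the control libraries, 0.626%, 0.652% and 0.666% with scramble ectosomes, and 0.668%, 0.666% and 0.727% with PKM2-knockdown ectosomes. Every ectosome library was thus below every control library in this share. On the TMM scale their summed level was 8618 ± 859 CPM in control (SD, n = 3, as for all values of this form), 7083 ± 305 CPM with scramble and 6660 ± 373 CPM with PKM2-knockdown ectosomes. In RNA of whole cultures, fewer cells carrying a transcript and less of it per cell cannot be told apart. The filter on low counts left 88 of the 92 members for testing. Of these, 59 (67.0%) had their highest group mean in control, against 35.4% of all rows tested, and 49 (55.7%) had their lowest with PKM2-knockdown ectosomes, against 27.2%. In 66 of the 88 the highest control library was control replicate 3 (75.0%, against 41.2% of all rows), where members lay a median 0.27 above the mean of the other control libraries in log2(CPM + 0.5), against -0.01 over all rows.

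**Figure D1:**
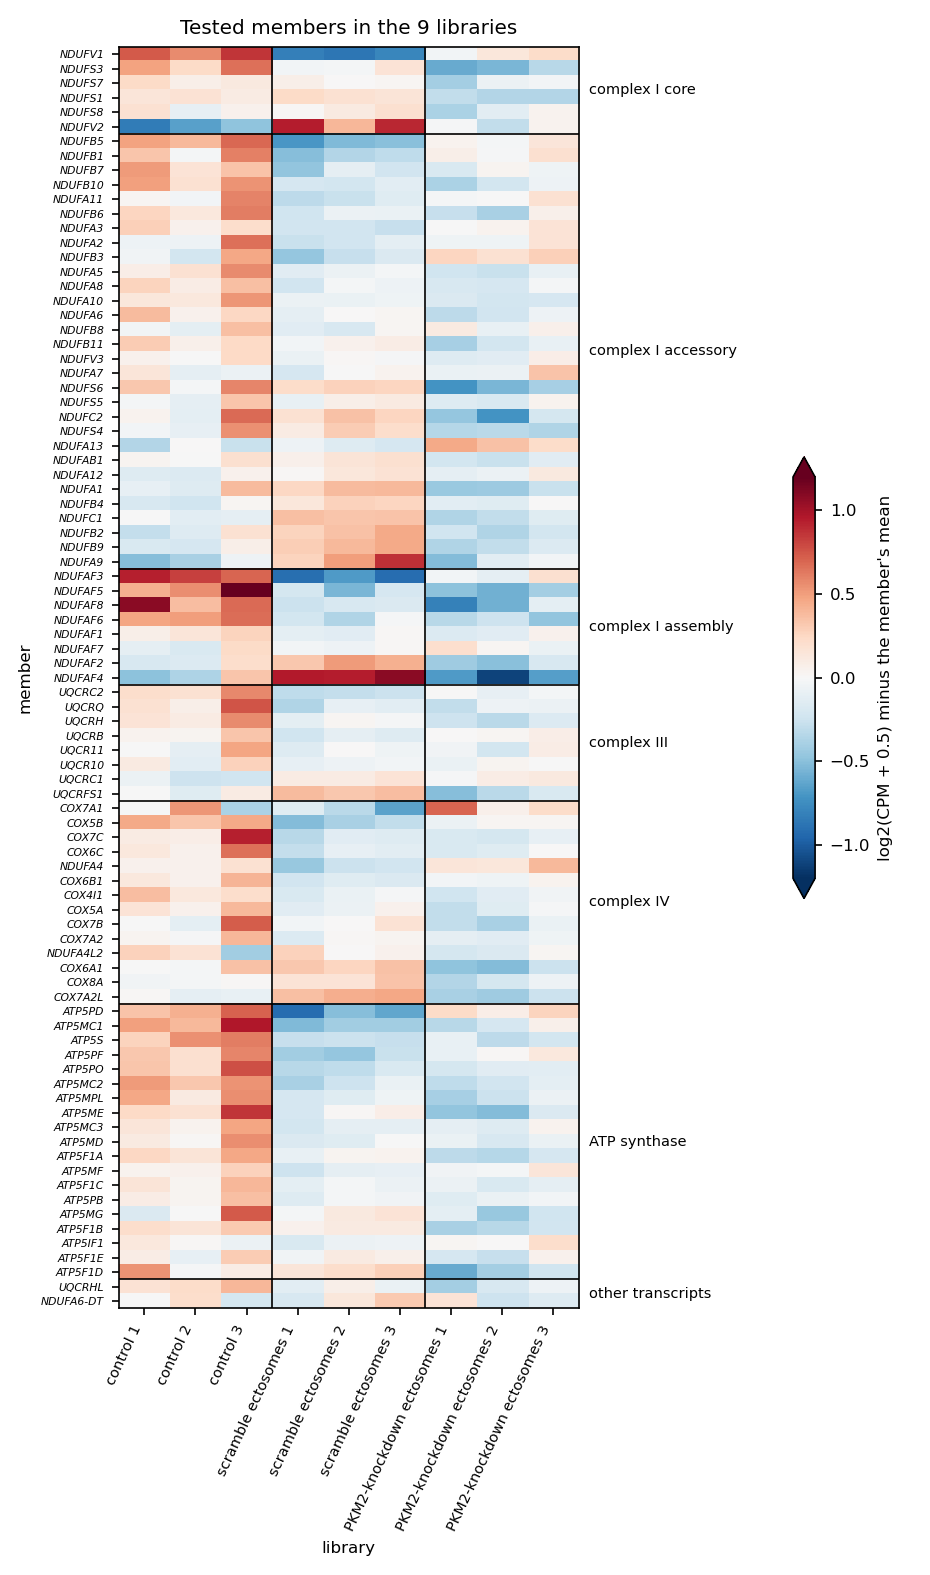
Rows are the 88 tested members except 1, grouped by class and ordered by its change with scramble ectosomes, and each column a library; colour is log2(CPM + 0.5) minus the member's mean over the 9 libraries, clipped at the ends of the scale. The control columns are mostly above the mean, control replicate 3 most often, and NDUFAF4, NDUFB9, COX7A2L and UQCRFS1 run the other way in the scramble columns.

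With scramble ectosomes against control, 44 members fell and 12 rose (edgeR quasi-likelihood test, p adjusted by Benjamini-Hochberg over every tested row, threshold 0.05). Among members with a mean of at least 5 CPM the largest falls were in the complex I assembly factors NDUFAF3 and NDUFAF5, its core subunit NDUFV1, the peripheral stalk subunit ATP5PD and the accessory subunit NDUFB5, all between 2.16-fold and 3.17-fold. NDUFAF4, another complex I assembly factor, rose 2.22-fold. None of the 19 ATP synthase members rose and 14 fell (73.7%, against 33.2% of all rows). The called share was 63.6% of members against 67.8% of all rows, so being changed was not in itself more frequent here. By direction, 50% of members fell against 33.2% of all rows, and 13.6% rose against 34.6%. Among rows with a mean of at least 5 CPM the shares were 34.6% and 39.5%. Most changes were small: 25% of members passed and changed by at least 1.5-fold (19 lower, 3 higher), against 53.1% of all rows. The median log2 fold change was -0.27 over members and -0.01 over all rows. Without control replicate 3 the counts were 43 lower and 17 higher with a median of -0.17, and without scramble replicate 1 only 26 members fell. Scaling by library totals alone, with which the median of all rows was -0.21 and not -0.01, gave 57 lower and 6 higher. The 2 groups did not overlap in 60 members (68.2%, against 71.3% of all rows).

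Between the 2 kinds of ectosomes, 23 members were lower with PKM2-knockdown ectosomes and 12 were higher. This comparison is also the test of whether the 2 kinds differ in their effect against the control they share. At a mean of at least 5 CPM the members that moved most were NDUFAF4, lower by 3.61-fold, and NDUFV1, ATP5PD and NDUFAF3, higher by 1.92-fold, 1.83-fold and 1.82-fold. Calls were fewer than in the table at large, 39.8% against 61.6% of all rows. Of the members 26.1% were lower and 13.6% higher, against 30.3% and 31.4% of all rows and 38.3% and 30.2% of those with a mean of at least 5 CPM, and 21.6% passed with at least 1.5-fold, against 45.8%. The median log2 fold change was -0.06, against 0.03 over all rows and -0.09 over those at 5 CPM or more, so that the members lay below the one and above the other. These counts moved with the processing: they were 31 lower and 21 higher without control replicate 3, a library of neither group, and 19 lower and 23 higher with library totals alone, with which the median of all rows was 0.20 and not 0.03. The groups did not overlap in 49 members (55.7%, against 74.5%).

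With PKM2-knockdown ectosomes against control, 51 members fell and 3 rose, a called share of 61.4% against 53.7% of all rows and 62.9% of those with a mean of at least 5 CPM. The members that fell made up 58.0%, against 26.7% of all rows and 34.6% of those at 5 CPM or more, and those that rose 3.41%, against 27.0% and 28.4%. The largest falls were in NDUFAF5 (2.76-fold), NDUFAF8 (2.38-fold), NDUFS3 (1.96-fold), NDUFAF6 (1.90-fold) and NDUFS6 (1.83-fold). The 3 that rose were the core subunit NDUFV2, the accessory subunit NDUFA13 and the complex III subunit UQCRC1, of which the calls of NDUFV2 and UQCRC1 were each lost under 4 alternatives. The median was -0.36, against -0.01 over all rows and -0.07 over those at 5 CPM or more, and 18 of the falls and 1 of the rises reached 1.5-fold (21.6%, against 37.1%). Without PKM2-knockdown replicate 2 the falls that passed numbered 33, and without control replicate 3 they numbered 52 with a median of -0.24. The groups did not overlap in 58 members (65.9%, against 60.5% of all rows and 68.7% of those at 5 CPM or more).

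**Figure D2:**
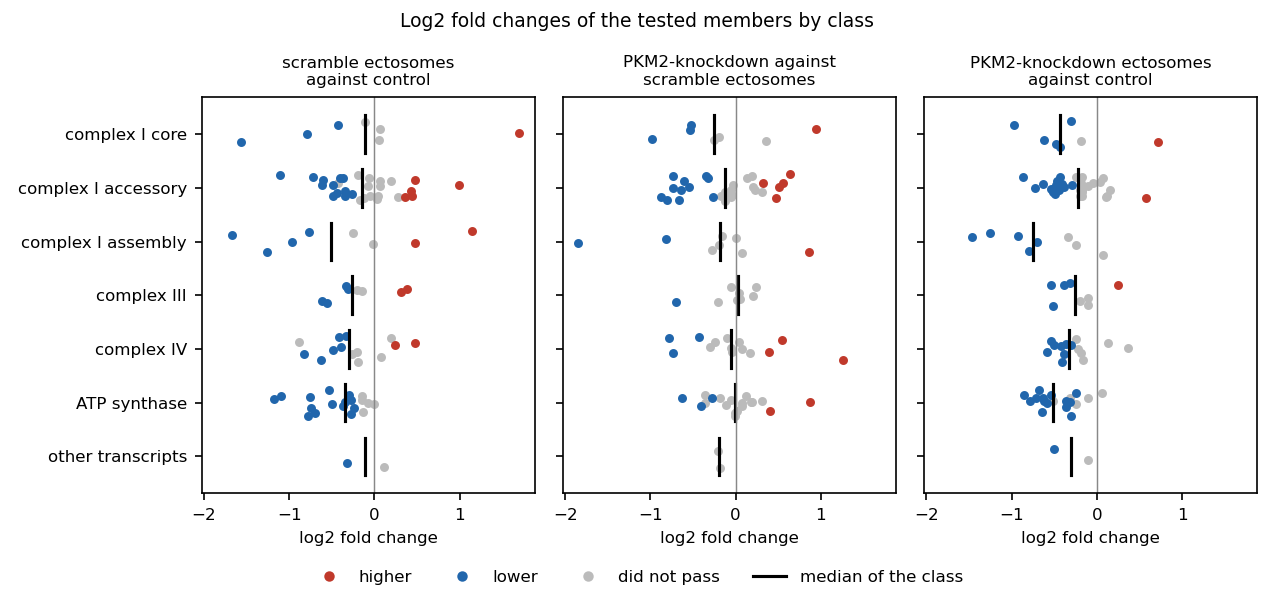
Log2 fold changes of the tested members in the 3 comparisons, one point per member, by class; the bar is the class median and colour shows which members passed the edgeR test. In the left and right panels every class median is below 0, whereas in the middle panel the medians of complex III, complex IV and the ATP synthase lie between -0.05 and 0.03.

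The upstream sequences of 4 members are shown because these genes differed between the 2 kinds of ectosomes: NDUFV1, ATP5PD and COX5B fell with scramble ectosomes and were higher again with PKM2-knockdown ectosomes, and NDUFAF4 did the reverse. Of the 88 tested members 10 fell with scramble ectosomes and were higher with PKM2-knockdown than with scramble ectosomes. The most common pattern, in 28 members and in none of these 4, was a fall with both kinds and no call between them. The shares of these patterns over all rows are not given here, so whether they are frequent among members cannot be said. Each is the 250 bases before the RefSeq start of the gene (GRCh38.p14), written 5′ to 3′ on the gene's strand: chr11:67606686-67606935 on the plus strand, chr17:75046970-75047219 on the minus strand, chr2:97645812-97646061 on the plus strand and chr6:96897892-96898141 on the minus strand. Capitals mark matches, on either strand, to CCGGAAGT, the letters searched for GABPA, or to GCGCATGC, those searched for NRF1, both regulators of respiratory chain genes.
NDUFV1: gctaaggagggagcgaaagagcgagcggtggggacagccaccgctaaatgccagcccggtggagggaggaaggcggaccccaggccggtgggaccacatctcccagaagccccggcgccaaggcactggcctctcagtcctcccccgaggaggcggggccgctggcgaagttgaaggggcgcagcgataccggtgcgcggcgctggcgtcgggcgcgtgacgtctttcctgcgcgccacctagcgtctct
ATP5PD: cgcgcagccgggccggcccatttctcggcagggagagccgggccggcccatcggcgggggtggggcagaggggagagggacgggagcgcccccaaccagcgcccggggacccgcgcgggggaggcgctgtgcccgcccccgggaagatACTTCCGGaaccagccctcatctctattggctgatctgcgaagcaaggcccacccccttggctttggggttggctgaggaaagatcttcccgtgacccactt
COX5B: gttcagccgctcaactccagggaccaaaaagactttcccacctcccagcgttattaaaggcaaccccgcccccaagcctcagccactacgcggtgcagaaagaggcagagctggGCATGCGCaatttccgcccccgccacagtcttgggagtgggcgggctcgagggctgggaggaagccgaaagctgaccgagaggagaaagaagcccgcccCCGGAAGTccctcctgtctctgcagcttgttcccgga
NDUFAF4: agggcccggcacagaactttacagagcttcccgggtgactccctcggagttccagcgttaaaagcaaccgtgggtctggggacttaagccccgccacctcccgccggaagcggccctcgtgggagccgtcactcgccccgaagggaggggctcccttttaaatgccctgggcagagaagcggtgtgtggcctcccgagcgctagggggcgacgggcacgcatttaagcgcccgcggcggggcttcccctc

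In ATP5PD the GABPA letters began 102 bases before the start. COX5B held the NRF1 letters 136 bases before the start and the GABPA letters 37 bases before it, with another GABPA match at 5 bases before, which runs past the end of the printed stretch and is not in capitals. NDUFV1 had no match around its RefSeq start, and NDUFAF4 had the NRF1 letters at position 7 after its start, outside the printed stretch. RefSeq promoters, here 300 bases from 250 before to 50 after the start, were matched for 74 of the 92 members. CCGGAAGT was in 9 of them (12.2%) and in 4.14% of all 35116 promoters. GCGCATGC was in 14 members (18.9%) and in 3.05% of all. AAGATGGC, searched for YY1, was in 11 members (14.9%) and in 2.89% of all. The E-box CACGTG, bound by MYC, was in 8 members (10.8%) and in 7.26% of all. Both strands were searched, and none of the 4 strings contains another. Each member was counted by its first entry. The 35116 promoters were all entries, not matched to the members in gene type or base composition. The strings for NRF1 and YY1 were chosen after longer forms of both had been searched in these promoters. The longer forms matched fewer members and a smaller share of all promoters, so the shares depend on the length of the string. By response to scramble ectosomes, GCGCATGC was in 8 of the 34 promoters of members that fell and in 2 of the 11 of members that rose, and CCGGAAGT in 5 and 1. A match is a description of the letters and not a site of binding.

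The 7 core subunits of complex I hold its redox centres and the coenzyme Q site. Their summed level was 917.4 ± 101 CPM in control, 597.3 ± 14.2 CPM with scramble and 654.7 ± 29.4 CPM with PKM2-knockdown ectosomes. NDUFV1, the subunit that binds NADH and FMN (chr11:67605653-67612554, plus strand in GRCh38), stood at 193, 172 and 211 CPM in the control libraries, 65.4, 63.2 and 66.95 CPM with scramble ectosomes and 113, 127 and 135 CPM with PKM2-knockdown ectosomes. The 3 groups did not overlap, and the PKM2-knockdown libraries lay between the others. The fall with scramble ectosomes was 2.94-fold (-1.56 on the log2 scale with an SE of 0.10, adjusted p = 1.8e-07), and with PKM2-knockdown ectosomes NDUFV1 was 1.92-fold higher than with scramble (0.94 on the log2 scale with an SE of 0.10, adjusted p = 1.21e-05) and 1.53-fold lower than in control (-0.62 on the log2 scale with an SE of 0.09, adjusted p = 0.000282).

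NDUFS3, a core subunit next to the coenzyme Q site, followed another order, 76.8, 64.4 and 86.8 CPM in control, 53.7, 53.8 and 61.6 CPM with scramble and 35.9, 37.3 and 43.3 CPM with PKM2-knockdown ectosomes. Each group lay below the one named before it without overlap, and NDUFS3 fell by 0.43 on the log2 scale from control to scramble (adjusted p = 0.00744) and was 1.45-fold lower again with PKM2-knockdown ectosomes (-0.54, adjusted p = 0.00247). NDUFS1, the subunit with the most iron-sulfur clusters, was at 125, 127 and 121 CPM in control, 132, 128 and 125 CPM with scramble and 91.7, 87.8 and 88.1 CPM with PKM2-knockdown ectosomes. The PKM2-knockdown libraries lay below all others, -0.52, adjusted p = 5.47e-05 against scramble ectosomes and -0.48, adjusted p = 0.000139 against control, and its log2 fold change of 0.05 with scramble ectosomes did not pass (adjusted p = 0.553). NDUFS7 and NDUFS8, iron-sulfur subunits, passed in 1 of their 6 comparisons, NDUFS7 being lower with PKM2-knockdown ectosomes than in control (-0.30, adjusted p = 0.0373), a call lost under 8 alternatives. The row of NDUFV2, an iron-sulfur subunit, held 1.23, 1.46 and 1.71 CPM in control, 5.42, 3.58 and 5.27 CPM with scramble and 2.55, 2.02 and 2.67 CPM with PKM2-knockdown ectosomes, and rose with scramble ectosomes (1.70, adjusted p = 6.35e-05). Per kilobase this is the lowest level of the core subunits, and 28.4% of its exon bases are shared with another gene on the same strand, so the row is uncertain as a measure of the transcript.

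Accessory subunits of complex I surround the core and are needed for its stability. With scramble ectosomes 12 of 30 fell (40%, against 33.2% of all rows) and 5 rose (16.7%, against 34.6%). With PKM2-knockdown against scramble ectosomes 11 were lower (36.7%, against 30.3%) and 5 higher (16.7%, against 31.4%), and against control 14 fell (46.7%, against 26.7%) and 1 rose. NDUFB5, of the membrane arm (chr3:179604690-179627647, plus strand), stood at 77.4, 72.2 and 89.1 CPM in the control libraries, 33.8, 38.02 and 38.7 CPM with scramble ectosomes and 56.6, 54.1 and 61.1 CPM with PKM2-knockdown ectosomes, with no overlap between any groups. It fell 2.16-fold with scramble ectosomes (-1.11 on the log2 scale with an SE of 0.10, adjusted p = 2.47e-06) and was 1.55-fold higher with PKM2-knockdown ectosomes (0.64 on the log2 scale with an SE of 0.10, adjusted p = 0.000218). NDUFB1 and NDUFB7, also of the membrane arm, fell with scramble ectosomes (-0.72, adjusted p = 0.000938 and -0.62, adjusted p = 0.000851). NDUFB10 fell in both ectosome groups, -0.60, adjusted p = 0.000654 with scramble and -0.63, adjusted p = 0.000729 with PKM2-knockdown ectosomes, and its log2 difference of -0.03 between them did not pass (adjusted p = 0.82).

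Another pattern was a rise with scramble ectosomes that was not seen with PKM2-knockdown ectosomes. NDUFB9 was at 111, 109.7 and 133 CPM in control, 155, 166 and 174 CPM with scramble and 98.6, 103 and 113 CPM with PKM2-knockdown ectosomes. The scramble libraries lay above all others. The rise was 1.40-fold (0.48 on the log2 scale with an SE of 0.10, adjusted p = 0.000956), and NDUFB9 was 1.58-fold lower with PKM2-knockdown than with scramble ectosomes (-0.66 on the log2 scale with an SE of 0.10, adjusted p = 0.00015). NDUFC1 was at 46.7, 42.9 and 43.4 CPM in control, 60.2, 59.2 and 59.5 CPM with scramble and 36.5, 38.1 and 42.3 CPM with PKM2-knockdown ectosomes, again with the scramble libraries above the rest (0.43, adjusted p = 0.000601 against control, -0.61, adjusted p = 6.21e-05 for PKM2-knockdown against scramble ectosomes). NDUFB2 moved likewise (0.44, adjusted p = 0.00641 and -0.64, adjusted p = 0.000744), though its rise was lost with library totals alone. Of NDUFB9, NDUFC1 and NDUFB2, 21%, 18.5% and 35.9% of exon bases are shared with other genes.

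NDUFS6, a zinc-binding subunit near the NADH end, did not pass with scramble ectosomes (-0.06, adjusted p = 0.696) and was low with PKM2-knockdown ectosomes. Its values were 117, 91.5 and 140.2 CPM in control, 109, 113 and 112 CPM with scramble and 56.5, 63.6 and 70.4 CPM with PKM2-knockdown ectosomes, and every PKM2-knockdown library lay below every other library. The differences were -0.81, adjusted p = 0.000472 against scramble ectosomes and -0.87, adjusted p = 0.000363 against control. NDUFC2 (-0.74, adjusted p = 0.00954) and NDUFA1 (-0.73, adjusted p = 0.000708) were also lower with PKM2-knockdown than with scramble ectosomes. NDUFA13, also known as GRIM-19, was higher with PKM2-knockdown ectosomes than in either other group, 0.51, adjusted p = 0.00742 against scramble and 0.57, adjusted p = 0.00476 against control, at 6.499, 8.48 and 6.900 CPM in control, 8.08, 7.53 and 7.28 CPM with scramble and 11.8, 10.9 and 9.91 CPM with PKM2-knockdown ectosomes. For NDUFA13, 21% of exon bases are shared with another gene on the same strand.

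The 8 NDUFAF assembly factors, which are not part of the finished complex, held some of the largest changes in both directions. With scramble ectosomes 4 fell (50%, against 33.2% of all rows) and 2 rose (25%, against 34.6%). Between the 2 kinds of ectosomes 2 were lower (25%, against 30.3%) and 1 higher (12.5%, against 31.4%) with PKM2-knockdown. Against control 5 fell with PKM2-knockdown ectosomes (62.5%, against 26.7%). NDUFAF3 and NDUFAF4 bind each other and act early, on the part of complex I that holds the coenzyme Q site. Their transcripts moved in opposite directions with scramble ectosomes and between the 2 kinds. Against control both were lower with PKM2-knockdown ectosomes (-0.80, adjusted p = 0.000102 for NDUFAF3 and -0.70, adjusted p = 0.0175 for NDUFAF4). NDUFAF3 (chr3:49020459-49023495, plus strand) stood at 92.3, 84.9 and 77.9 CPM in the control libraries, 25.5, 29.8 and 25.2 CPM with scramble ectosomes and 46.8, 44.4 and 54.9 CPM with PKM2-knockdown ectosomes. All groups were apart, with the scramble libraries lowest. It fell 3.17-fold with scramble ectosomes (-1.67 on the log2 scale with an SE of 0.11, adjusted p = 2.69e-07) and was 1.82-fold higher with PKM2-knockdown ectosomes (0.86 on the log2 scale with an SE of 0.11, adjusted p = 5.52e-05). Of its exon bases, 21.7% lie opposite those of DALRD3, which moved the same way (-1.41, adjusted p = 6.12e-07 and 0.88, adjusted p = 3.43e-05), and without strand the reads of the pair cannot be told apart. Per kilobase of exon, DALRD3 was at 8.67 CPM in control and NDUFAF3 at 34.9 CPM.

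NDUFAF4 (chr6:96889313-96897881, minus strand) stood at 11.6, 12.7 and 20.98 CPM in the control libraries, 32.4, 32.2 and 35.5 CPM with scramble ectosomes and 10.1, 7.36 and 10.3 CPM with PKM2-knockdown ectosomes. The scramble libraries were above every other library, and those with PKM2-knockdown ectosomes below all others. The rise with scramble ectosomes was 2.22-fold (1.15 on the log2 scale with an SE of 0.21, adjusted p = 0.000511), and NDUFAF4 was 3.61-fold lower with PKM2-knockdown than with scramble ectosomes (-1.85 on the log2 scale with an SE of 0.21, adjusted p = 2.84e-05). Against control it was lower with PKM2-knockdown ectosomes (-0.70, adjusted p = 0.0175), a call lost without PKM2-knockdown replicate 2. No exon base of NDUFAF4 is shared with another gene. NDUFAF2, which acts late in assembly, moved in the same way with scramble ectosomes (0.48, adjusted p = 0.0114, lost with library totals alone) and between the 2 kinds (-0.82, adjusted p = 0.000534). NDUFAF5, which modifies the core subunit NDUFS7, and its partner NDUFAF8 were low with both kinds of ectosomes. NDUFAF5 was at 9.16, 10.1 and 19.04 CPM in control, 5.73, 4.42 and 5.75 CPM with scramble and 4.61, 4.31 and 4.93 CPM with PKM2-knockdown ectosomes, with control replicate 3 well above the other control libraries. Its falls were -1.26, adjusted p = 0.00123 with scramble and -1.46, adjusted p = 0.000767 with PKM2-knockdown ectosomes. NDUFAF8 fell likewise (-0.97, adjusted p = 0.00139 and -1.25, adjusted p = 0.000439), as did NDUFAF6, another early factor (-0.77, adjusted p = 0.000195 and -0.93, adjusted p = 9.23e-05). For these 3 the log2 differences between the 2 kinds of ectosomes were -0.20, -0.28 and -0.16 and did not pass. NDUFAF1 and NDUFAF7 did not pass in any comparison.

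**Figure D3:**
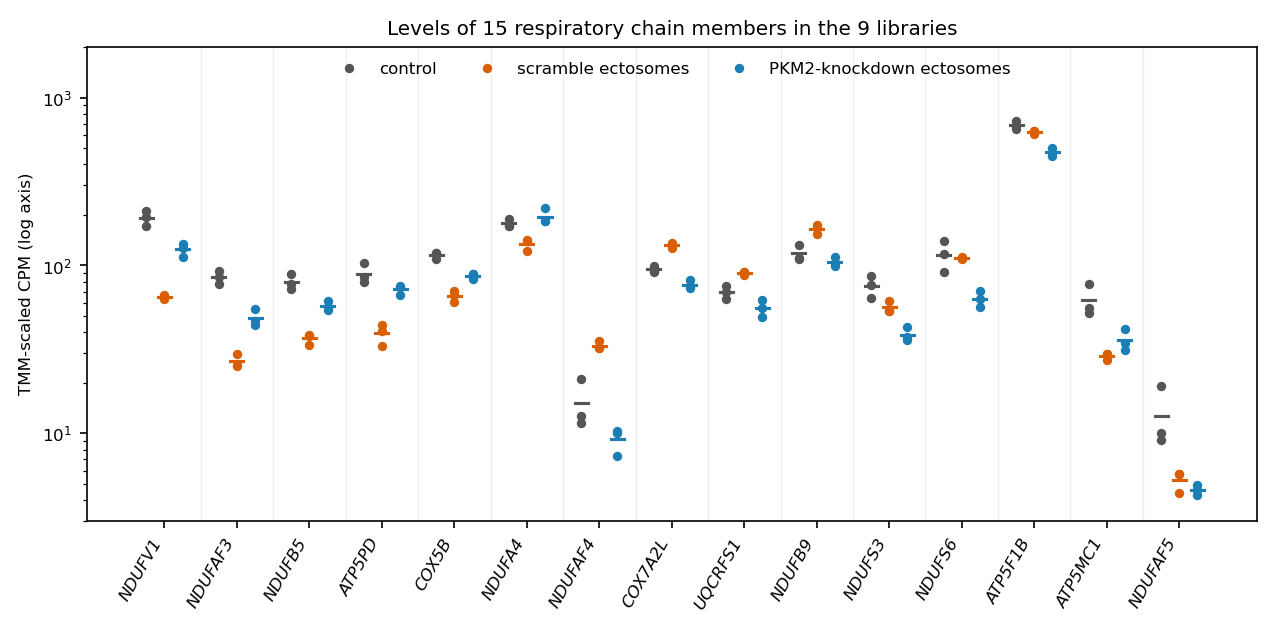
TMM-scaled CPM of 15 members on a log axis, one point per library and a bar at the group mean, for control (grey), scramble ectosomes (orange) and PKM2-knockdown ectosomes (blue). From NDUFV1 to NDUFA4 the scramble libraries are lowest, from NDUFAF4 to NDUFB9 they are highest, and in NDUFS3, NDUFS6 and ATP5F1B the PKM2-knockdown libraries are lowest.

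Complex III passes electrons from coenzyme Q to cytochrome c. Of its 8 members 4 fell (50%, against 33.2% of all rows) and 2 rose (25%, against 34.6%) with scramble ectosomes. With PKM2-knockdown ectosomes against control 4 fell (50%, against 26.7%) and 1 rose (12.5%, against 27.0%). Between the 2 kinds of ectosomes 1 passed (12.5%, against 61.6% of all rows). This was UQCRFS1, the Rieske iron-sulfur subunit that carries electrons towards cytochrome c. UQCRFS1 was at 70.00, 63.5 and 75.3 CPM in the control libraries, 91.7, 88.04 and 91.3 CPM with scramble ectosomes and 49.2, 56.1 and 61.9 CPM with PKM2-knockdown ectosomes. The scramble libraries lay above all others and the PKM2-knockdown libraries below. The rise was 1.30-fold (0.38 on the log2 scale with an SE of 0.10, adjusted p = 0.00487), a call lost with library totals alone. PKM2-knockdown ectosomes gave a level 1.62-fold lower than scramble ectosomes (-0.70 on the log2 scale with an SE of 0.10, adjusted p = 0.000107) and lower than control (-0.32, adjusted p = 0.0162), the last lost without PKM2-knockdown replicate 1 or 2. The core proteins UQCRC1 and UQCRC2 went opposite ways. UQCRC1 was at 175, 154 and 156 CPM in control, 197, 196 and 206 CPM with scramble and 182, 196 and 199 CPM with PKM2-knockdown ectosomes and rose with scramble ectosomes (0.31, adjusted p = 0.00478, lost with library totals alone). UQCRC2 was at 161, 158 and 209 CPM in control, 113, 115 and 116 CPM with scramble and 139, 130.1 and 138 CPM with PKM2-knockdown ectosomes and fell (-0.62, adjusted p = 0.000328). UQCRQ and UQCRH, small subunits, fell with PKM2-knockdown ectosomes against control (-0.51, adjusted p = 0.021 and -0.54, adjusted p = 0.00295), the call of UQCRQ being lost without PKM2-knockdown replicate 1. UQCRHL, a near-identical copy of UQCRH, may share its reads.

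Complex IV reduces oxygen. With scramble ectosomes 6 of its 14 tested members fell (42.9%, against 33.2% of all rows) and 2 rose (14.3%, against 34.6%). Between the 2 kinds 3 were lower (21.4%, against 30.3%) and 3 higher (21.4%, against 31.4%) with PKM2-knockdown. Against control 8 fell with PKM2-knockdown ectosomes (57.1%, against 26.7%). COX5B, a zinc-binding subunit (chr2:97646040-97648383, plus strand), stood at 119, 109 and 119 CPM in the control libraries, 60.3, 66.5 and 70.5 CPM with scramble ectosomes and 82.6, 88.4 and 88.5 CPM with PKM2-knockdown ectosomes, with the 3 groups apart. It fell 1.76-fold with scramble ectosomes (-0.82 on the log2 scale with an SE of 0.08, adjusted p = 5.76e-06) and was 1.31-fold higher with PKM2-knockdown ectosomes (0.39 on the log2 scale with an SE of 0.08, adjusted p = 0.00146). NDUFA4, named for complex I but a subunit of complex IV, was at 173, 172 and 189 CPM in control, 121, 139.8 and 142 CPM with scramble and 184, 183 and 219 CPM with PKM2-knockdown ectosomes. The scramble libraries lay below all others (-0.41, adjusted p = 0.00335 against control, 0.54, adjusted p = 0.000659 for PKM2-knockdown against scramble ectosomes), and 0.13 for PKM2-knockdown ectosomes against control did not pass (adjusted p = 0.27). Its paralogue NDUFA4L2, known as a target of hypoxia signalling, stood at 16.1, 17.01 and 14.4 CPM and did not pass in any comparison.

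COX7A2L, which joins complexes III and IV into supercomplexes, was at 99.6, 91.6 and 93.1 CPM in the control libraries, 127, 134 and 136 CPM with scramble ectosomes and 75.3, 73.2 and 82.5 CPM with PKM2-knockdown ectosomes. Every scramble library lay above every other library and every PKM2-knockdown library below. The rise was 1.40-fold (0.48 on the log2 scale with an SE of 0.07, adjusted p = 0.000186). PKM2-knockdown ectosomes gave a level 1.72-fold lower than scramble ectosomes (-0.78 on the log2 scale with an SE of 0.08, adjusted p = 7.94e-06) and lower than control (-0.30, adjusted p = 0.00622). COX6A1 (-0.74, adjusted p = 0.000284) and COX8A (-0.43, adjusted p = 0.00152) were also lower with PKM2-knockdown than with scramble ectosomes. The rise of COX8A with scramble ectosomes (0.24, adjusted p = 0.0298) was lost under 6 alternatives, and 34.5% of its exon bases are shared with another gene on the same strand. Of the subunits with tissue isoforms, COX4I1 was at 305, 242 and 235 CPM. Against control it fell with scramble (-0.33, adjusted p = 0.00734) and with PKM2-knockdown ectosomes (-0.38, adjusted p = 0.00495). COX6B1 was at 101, 76.7 and 86.5 CPM and fell with scramble ectosomes (-0.39, adjusted p = 0.00368). COX7A2 was at 192, 169 and 162 CPM with no call. COX7A1, the muscle form, was at most 1.37 CPM in any library, and its call between the 2 kinds of ectosomes (1.26, adjusted p = 0.0374) was lost under 5 alternatives. COX7B was at 68.3, 59.3 and 48.1 CPM. COX6C and COX7C fell with scramble ectosomes (-0.48, adjusted p = 0.0129 and -0.63, adjusted p = 0.0139), both calls being lost without scramble replicate 1.

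The 19 ATP synthase members all had a log2 fold change below 0 with scramble ectosomes, against 9263 of the 18437 rows tested. The members ranged from -1.18 to -0.01 with a median of -0.35. Of these 14 passed, 15 without control replicate 3 and 7 without scramble replicate 1. With PKM2-knockdown ectosomes against control 14 fell (73.7%, against 26.7% of all rows) and none rose (against 27.0%). Between the 2 kinds of ectosomes 3 of the 19 were lower and 2 higher with PKM2-knockdown. Over all rows 30.3% were lower and 31.4% higher in that comparison. The sum of the 19 members was 2876 ± 294 CPM in control, 2311 ± 101 CPM with scramble and 2126 ± 123 CPM with PKM2-knockdown ectosomes. In the catalytic head, the beta subunit ATP5F1B, the highest of the class per kilobase of exon, was at 679.6, 652 and 728 CPM in the control libraries, 609, 633 and 633 CPM with scramble ectosomes and 446, 466 and 501 CPM with PKM2-knockdown ectosomes. The PKM2-knockdown libraries lay below all others. With scramble ectosomes the change did not pass (-0.14, adjusted p = 0.139), and with PKM2-knockdown ectosomes ATP5F1B was 1.33-fold lower than with scramble (-0.41 on the log2 scale with an SE of 0.08, adjusted p = 0.000965) and 1.46-fold lower than in control (-0.54 on the log2 scale with an SE of 0.08, adjusted p = 0.000177). The alpha subunit ATP5F1A fell with both kinds (-0.30, adjusted p = 0.0139 and -0.58, adjusted p = 0.000363), the first call being lost without scramble replicate 1. ATP5F1D, the delta subunit of the central stalk, was lower with PKM2-knockdown ectosomes (-0.64, adjusted p = 0.00319 against control, -0.63, adjusted p = 0.00287 against scramble ectosomes).

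Of the 4 peripheral stalk subunits, which hold the catalytic head still, all passed as lower with scramble ectosomes, ATP5PB with a call that was lost under 7 alternatives, DESeq2 and leaving out any 1 ectosome library among them. ATP5PD (chr17:75038863-75046985, minus strand) was at 79.9, 84.9 and 103 CPM in the control libraries, 33.3, 44.2 and 40.8 CPM with scramble ectosomes and 74.1, 66.8 and 75.97 CPM with PKM2-knockdown ectosomes. Every scramble library was below every other library. The fall was 2.27-fold (-1.18 on the log2 scale with an SE of 0.13, adjusted p = 1.03e-05), and ATP5PD was 1.83-fold higher with PKM2-knockdown than with scramble ectosomes (0.87 on the log2 scale with an SE of 0.12, adjusted p = 0.000134). Its difference from control with PKM2-knockdown ectosomes did not pass (-0.31, adjusted p = 0.0558). KCTD2, which lies opposite part of its exons, moved the other way (0.77, adjusted p = 1.77e-05 with scramble ectosomes). ATP5PF followed the same order as ATP5PD, -0.76, adjusted p = 9.8e-05 with scramble ectosomes and 0.40, adjusted p = 0.0078 between the 2 kinds. ATP5PO (-0.74, adjusted p = 0.000803) and ATP5PB (-0.24, adjusted p = 0.0411) fell with scramble ectosomes, and their log2 differences between the 2 kinds, 0.12 and -0.01, did not pass.

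The genes ATP5MC1, ATP5MC2 and ATP5MC3 encode the same mature c subunit of the rotor ring with different import sequences. All 3 fell with scramble ectosomes, by 1.10, 0.70 and 0.37 on the log2 scale (adjusted p = 7.76e-05, 9.67e-05 and 0.0117). ATP5MC1 was at 56.1, 52.3 and 77.8 CPM in control, 27.5, 29.7 and 29.7 CPM with scramble and 31.4, 34.6 and 41.6 CPM with PKM2-knockdown ectosomes, so that neither ectosome group overlapped control. ATP5MC2 was at 232, 203 and 236 CPM in control, 123, 136 and 153 CPM with scramble and 131, 139 and 149 CPM with PKM2-knockdown ectosomes. With PKM2-knockdown ectosomes against control they fell by 0.79, 0.68 and 0.30 (adjusted p = 0.00119, 0.000214 and 0.041), and none passed between the 2 kinds of ectosomes. The calls of ATP5MC3 were lost without scramble replicate 1, and that against control with PKM2-knockdown ectosomes under 6 alternatives in all. ATP5S, an associated coupling factor, fell in both ectosome groups (-0.78, adjusted p = 0.00016 and -0.71, adjusted p = 0.000508). ATP5ME, a small membrane subunit, had the largest fall of the class with PKM2-knockdown ectosomes against control (-0.86, adjusted p = 0.00239). ATP5IF1, the inhibitor that stops the enzyme from consuming ATP, was at 119, 110.2 and 104 CPM in control, 95.8, 104 and 104 CPM with scramble and 111, 109.5 and 126 CPM with PKM2-knockdown ectosomes and did not pass in any comparison (-0.13, 0.19 and 0.06 in log2).

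Per kilobase of merged exons, member levels in control ran from 0.04 CPM for the readthrough row ATP5MF-PTCD1 to 295.7 CPM for ATP5F1B, with COX8A at 239.9, UQCRH at 226.1 and NDUFS5 at 201.4 CPM. Class medians of this level were 13.98 CPM for complex I core, 24.69 for its accessory subunits, 8.613 for its assembly factors, 41.84 for complex III, 54.17 for complex IV and 34.24 for the ATP synthase. ATP5F1B at 269.0 CPM and COX8A at 284.1 CPM remained the most abundant per kilobase with scramble ectosomes, in the reverse order, and COX8A at 210.6 CPM and ATP5F1B at 202.8 CPM with PKM2-knockdown ectosomes. Of the 92 members, 50 share exon bases with another gene, 34 of them more than 10% of their bases and 15 more than 10% on the same strand. For these the rows may hold reads of the neighbour or have lost their own. NDUFA7 and NDUFA9, at 1.005 and 3.08 CPM in control, share 32.3% and 10.6% on the same strand. The limit also holds, among others, for ATP5ME (61.6% on either strand), NDUFS7 (49.1%), NDUFA1 (44.5%), ATP5PO (25.4%), ATP5PF (23.1%) and NDUFS3 (22.4%). ATP5PO and NDUFS3 share 19.6% each on the same strand.

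Other genes of the pathway were followed as 5 lists, whose counts stand beside shares over all rows of 33.2% lower and 34.6% higher with scramble ectosomes, 30.3% and 31.4% between the 2 kinds, and 26.7% and 27.0% with PKM2-knockdown ectosomes against control. The 13 subunits encoded by mitochondrial DNA ranged from -0.17 to 0.40 in log2 fold change with scramble ectosomes. With scramble ectosomes 3 rose and none fell, between the 2 kinds 3 were higher and 6 lower with PKM2-knockdown, and against control 2 rose with PKM2-knockdown ectosomes. MT-ND1 rose with scramble ectosomes (0.40, adjusted p = 0.000586), and MT-CO1 passed narrowly (0.20, adjusted p = 0.0482), but with library totals alone MT-CO1 was at -0.00. MT-ND4L and MT-ND4, which share 1 transcript, were higher with PKM2-knockdown than with scramble ectosomes (0.75, adjusted p = 8.33e-05 and 0.42, adjusted p = 0.000343). With scramble ectosomes MT-ND4 did not pass (0.05) and was at -0.16 with library totals alone. Of complex II and the carriers, CYCS, which encodes cytochrome c, rose from 268 ± 26.5 to 411 ± 16.6 CPM with scramble ectosomes (0.62, adjusted p = 0.000114) and was at 241 ± 14.7 CPM with PKM2-knockdown ectosomes (-0.77, adjusted p = 3.06e-05 against scramble). SDHA, the flavoprotein of complex II, fell with scramble ectosomes (-0.35, adjusted p = 0.00373) and SDHB, its iron-sulfur subunit, rose (0.26, adjusted p = 0.0202).

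Assembly factors with other names than NDUFAF fell in 22 (48.9%) and rose in 10 (22.2%) of 45 cases with scramble ectosomes, against 33.2% and 34.6% of all rows. Between the 2 kinds 16 were lower (35.6%) and 13 higher (28.9%) with PKM2-knockdown, shares near the 30.3% and 31.4% of all rows, and against control 25 fell (55.6%, against 26.7%) and 3 rose (6.67%, against 27.0%). SURF1, needed for the assembly of complex IV, was at 29.8, 25.8 and 25.1 CPM in control, 6.14, 7.69 and 7.38 CPM with scramble and 22.1, 22.6 and 24.3 CPM with PKM2-knockdown ectosomes. It fell 3.81-fold with scramble ectosomes (-1.93, adjusted p = 1.7e-07) and was 3.26-fold higher with PKM2-knockdown ectosomes (1.70, adjusted p = 8.53e-07). ACAD9, a complex I assembly factor, was at 54.9, 59.4 and 66.96 CPM in control, 17.5, 18.3 and 17.8 CPM with scramble and 43.8, 42.5 and 43.1 CPM with PKM2-knockdown ectosomes, and moved in the same order (-1.76, adjusted p = 3.88e-08 and 1.27, adjusted p = 7.98e-07). SDHAF4, a complex II factor, did too (-2.03, adjusted p = 2.28e-07 and 1.37, adjusted p = 7.47e-06). TMEM70, which serves the ATP synthase, rose with scramble ectosomes (0.75, adjusted p = 2.15e-05) and was lower with PKM2-knockdown (-0.73, adjusted p = 3.71e-05). LRPPRC, which stabilises mitochondrial mRNAs, fell with both (-0.64, adjusted p = 1.68e-05 and -0.89, adjusted p = 3.46e-06). SCO2, a copper carrier of complex IV, rose with PKM2-knockdown ectosomes against control from 2.48 ± 0.528 to 7.93 ± 1.61 CPM (1.68, adjusted p = 4.92e-05).

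In coenzyme Q synthesis 6 of 11 genes fell (54.5%, against 33.2% of all rows) and none rose with scramble ectosomes. With PKM2-knockdown 4 were higher (36.4%, against 31.4%) and 2 lower (18.2%, against 30.3%) than with scramble ectosomes, and 7 fell against control (63.6%, against 26.7%). COQ8A, an atypical kinase of the pathway, had the largest change, 70.2, 66.3 and 98.1 CPM in control, 5.82, 5.79 and 5.56 CPM with scramble and 14.9, 16.3 and 16.6 CPM with PKM2-knockdown ectosomes (-3.77, adjusted p = 1.15e-08 with scramble and -2.30, adjusted p = 5.29e-07 with PKM2-knockdown ectosomes). Of 18 tested regulators of mitochondrial biogenesis 6 rose (33.3%) and 5 fell (27.8%) with scramble ectosomes, near the 34.6% and 33.2% of all rows. With PKM2-knockdown 3 were higher (16.7%, against 31.4%) and 10 lower (55.6%, against 30.3%) than with scramble ectosomes, and 12 fell against control (66.7%, against 26.7%). The coactivator gene PPARGC1B was at 18.5, 19.1 and 37.6 CPM in control, 6.14, 4.79 and 4.17 CPM with scramble and 17.96, 17.96 and 16.04 CPM with PKM2-knockdown ectosomes (-2.31, adjusted p = 2.28e-05 and 1.78, adjusted p = 0.000211). A pair of transcription factors of respiratory genes did the reverse: NRF1 was at 18.5, 17.7 and 22.96 CPM in control, 32.1, 28.5 and 29.2 CPM with scramble and 15.2, 12.9 and 13.7 CPM with PKM2-knockdown ectosomes (0.60, adjusted p = 0.000951 and -1.10, adjusted p = 1.94e-05), and ESRRA went from 80.4 ± 4.72 to 129 ± 0.857 and 67.9 ± 5.58 CPM (0.69, adjusted p = 2.19e-05 and -0.93, adjusted p = 3.79e-06). GABPA did not pass with scramble ectosomes (-0.09, adjusted p = 0.514). TFAM, which packs and transcribes mitochondrial DNA, was lower with PKM2-knockdown than with scramble ectosomes (-0.55, adjusted p = 0.00102). PPARGC1A was removed by the filter on low counts.

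**Figure D4:**
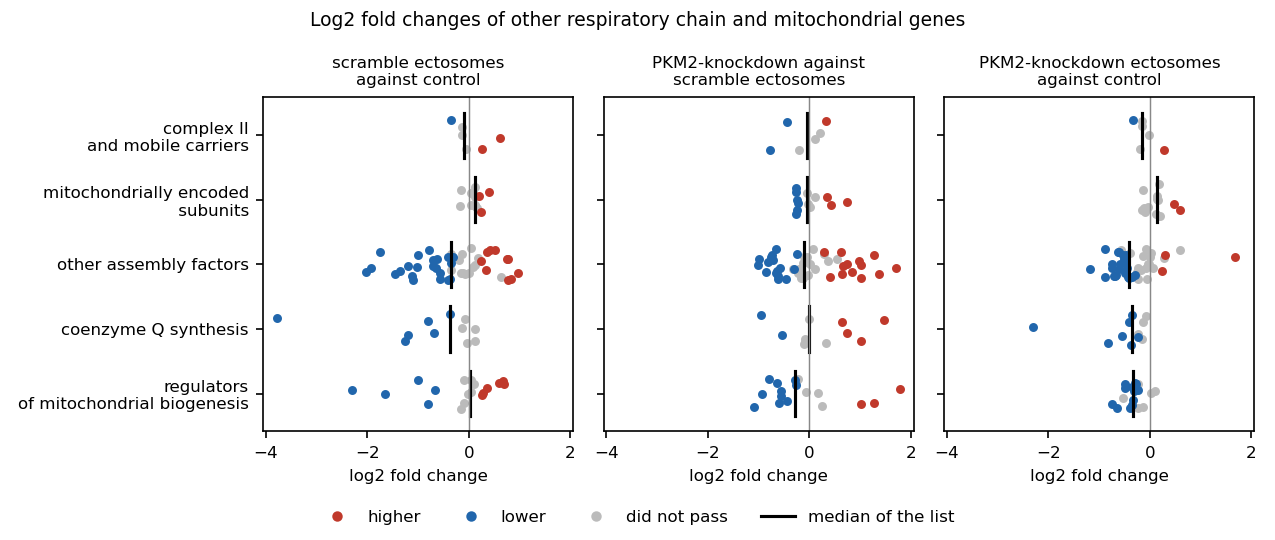
Log2 fold changes of the tested genes of the 5 further lists in the 3 comparisons, one point per gene, with the list median as a bar and colour for the result of the edgeR test. In the left panel the mitochondrially encoded subunits lie between -0.17 and 0.40, and in the middle panel MT-ND4L stands at 0.75; the other assembly factors spread on both sides, and COQ8A stands at -3.77 in the left panel.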

How the data were processed

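Values are the raw counts of reads per gene that the authors deposited, 1 column per library, not normalized. Per the submitters' processing notes, HISAT2 2.0.5, featureCounts 1.5.0-p3 and GRCh38 (hg38) were used. The annotation release and the strand setting: not given in the sources used here. Per the labels' protocols, libraries were made from Trizol-extracted RNA with the NEBNext Ultra kit. The smallest row total was 4 counts.

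All 30000 rows were tested together with edgeR 4.0.16 (R 4.3.3): filterByExpr by group left 18437 rows, scaling was by TMM, and 1 quasi-likelihood fit with group as its only term held the 9 libraries (6 residual degrees of freedom, common biological coefficient of variation 13.3%). Tests were two-sided, p-values were adjusted by Benjamini-Hochberg over the 18437 rows with 0.05 as threshold, and all adjusted p-values in the text come from this edgeR fit unless another setting is named. The SE is the absolute log2 fold change over the square root of F. The fit was tested on simulated counts. Coordinates, exon lengths and overlaps are from GENCODE 29 (GRCh38).

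Alternatives were library totals, DESeq2 size factors, no filter, the replicate number as a block, leaving out each library, the 2 groups alone, DESeq2 1.42.0 and a 1.5-fold minimum. Same-numbered libraries deviated from their group means with correlations of -0.09 to 0.07, which show no shared deviation by number. These correlations cannot tell whether same-numbered libraries were prepared together.

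Members, classes and lists were chosen with earlier results of these data known. Named were, per class and comparison, up to 3 rises and 3 falls with a mean of at least 5 CPM and groups that did not overlap, the isoform sets, ATP5IF1, and up to 3 genes of each of 5 further lists by p. Other named genes (NDUFS7, NDUFS8, NDUFV2, NDUFA7, NDUFA9, NDUFAF1, NDUFAF7, ATP5PO, ATP5PB, SDHA, SDHB, TMEM70, GABPA, TFAM and the 2 neighbouring genes among them) were chosen after their values were seen. The values of 1 member are not reported here, though it is in the counts over all members.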

Additional observations from a re-analysis of the deposited data

Results flagged for a closer look

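For 3 of the 88 tested members the 2 kinds of ectosomes moved the level past the threshold in opposite directions from the shared control. The difference between the 2 kinds was itself tested. The share of this pattern over all rows is not given here, so whether it is frequent among members cannot be said. NDUFAF4 rose with scramble ectosomes (1.15) and fell with PKM2-knockdown ectosomes (-0.70), and the log2 difference between the 2 kinds was -1.85 (adjusted p = 2.84e-05, edgeR). UQCRFS1 did the same (0.38 and -0.32, difference -0.70, adjusted p = 0.000107, edgeR). For COX7A2L the values were 0.48 and -0.30, with a difference of -0.78 (adjusted p = 7.94e-06, edgeR). All 3 scramble libraries were above all 3 PKM2-knockdown libraries in each of these genes. The fall of NDUFAF4 against control was lost without PKM2-knockdown replicate 2, the rise of UQCRFS1 with library totals alone and its fall without PKM2-knockdown replicate 1 or 2. For COX7A2L neither call was lost under the alternatives other than the 1.5-fold minimum.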

How the results depend on the processing

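Requiring at least 1.5-fold as well reduced the members called to 3 higher and 19 lower with scramble ectosomes against control, 5 higher and 14 lower between the 2 kinds of ectosomes, and 1 higher and 18 lower with PKM2-knockdown ectosomes against control. Leaving out 1 library at a time gave 11 to 17 higher and 26 to 46 lower in the first, 10 to 21 higher and 21 to 31 lower in the second, and 1 to 4 higher and 33 to 55 lower in the last. The lowest of the falls came without scramble replicate 1 (26) and without PKM2-knockdown replicate 2 (33), which also leaves fewer libraries. The 21 higher between the kinds came without control replicate 3, and the single rise against control without control replicate 2 or PKM2-knockdown replicate 3. With only the 2 groups compared, 22 were higher and 31 lower between the kinds. Library totals alone gave 6 higher with scramble ectosomes and 23 higher between the kinds, kept 50 of 56, 31 of 35 and 54 of 54 calls, and turned MT-CO1 (-0.00, adjusted p = 0.981) and MT-ND4 (-0.16, adjusted p = 0.0422) with scramble ectosomes, a scaling that moves all rows. With the replicate number as a block the counts were 14 higher and 46 lower, 13 and 24, and 3 and 49, and no member call changed direction. Same-numbered libraries showed no shared deviation, and whether the block stands for a real pairing is not known. The DESeq2 test kept 52 of 56, 34 of 35 and 54 of 54 calls. Apart from the 1.5-fold minimum, no alternative changed the call of 6 of the 12 rises and 26 of the 44 falls with scramble ectosomes, 9 of 12 and 19 of 23 between the kinds, and 1 of 3 and 31 of 51 against control. With 3 libraries per group and control replicate 3 apart from its group, all changes rest on few degrees of freedom, those under 1.5-fold included. Depth limits NDUFV2, NDUFA7, NDUFA9 and COX7A1, which had few counts, and overlapping or near-identical genes limit others whatever the depth.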

Other observations

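The 4 members removed by the filter on low counts are given as values. COX8C, a testis form of a complex IV subunit, was at 0.426, 0.344 and 0.442 CPM in control, 0.0451, 0.105 and 0.0959 CPM with scramble and 0.196, 0.0938 and 0.315 CPM with PKM2-knockdown ectosomes. COX6B2, the testis form of COX6B, was at 0.213, 0.387 and 0.221 CPM in control, 0.0903, 0.0527 and 0.192 CPM with scramble and 0.344, 0.422 and 0.472 CPM with PKM2-knockdown ectosomes, and 30.9% of its exon bases are shared with another gene on the same strand. ATP5MGL and the readthrough row ATP5MF-PTCD1 were at or below 0.316 CPM in every library.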
